A study of Mus musculus with 21 samples.

Results

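p53 is the transcription factor that Trp53 encodes, and the regions described here are the places where a p53 antibody gave CUT&RUN peaks in cells without Trp53 and in no list from cells with it. CUT&RUN uses an antibody to bring a protein A-micrococcal nuclease fusion to chromatin in permeabilised cells, and the DNA that the nuclease cuts free is sequenced. The cells were ID8, an epithelial line from the ovarian surface of C57BL/6 mice, immortalised, growing asynchronously and untreated. The p53 antibody was used on 2 samples labelled Trp53+/+ (WT) and 2 labelled Trp53-/- (KO), out of 21 samples in all. The deposited data give 1 list of peaks per genotype, with a chromosome, a start and an end for each peak and no height or score. The labels do not say whether the KO cells came from 1 clone. Of the 9784 peaks in the KO list, 5770 (59.0%) overlapped no peak of the WT list by 1 bp or more, and these are called KO-only peaks below. The other 4014 KO peaks are called shared, and 2768 of the 6811 WT peaks, which overlapped no KO peak, are called WT-only.

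In WT cells p53 binds DNA as a tetramer, at pairs of a short palindromic motif, and activates genes of cell cycle arrest, cell death and metabolism. In cells without the gene, as the labels give them, a peak of this antibody does not report p53 on DNA. CUT&RUN is known to give such signal where the antibody meets another protein or where free nuclease cuts accessible DNA, which is found at promoters and enhancers. Accessible DNA in epithelial and mesenchymal cells is often marked by motifs of AP-1, the dimers of FOS and JUN proteins, and of TEAD factors, the partners of YAP. Neither accessibility nor histone marks were examined here, so the description of these regions as open chromatin was not tested. The lists give presence and not level: a KO-only peak is one without a WT interval, not one shown to be lower in WT cells. With 1 list per genotype there is no replicate behind any value and no test across samples, and intervals in the text are 95% exact binomial intervals that treat peaks, genes or windows as independent and cover counting error only.

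Sequence could be read at promoters, where RefSeq windows of 300 bases (250 before to 50 after an annotated start, GRCm38.p6, the assembly that mm10 represents) were used. Of 32851 such windows, 556 (1.69%) met a KO-only peak and 42, of 39 genes, lay wholly inside one. In 16 of these genes the 250 bases before the start touched no annotated gene, and 3 of the 16 held an AP-1 motif (TGANTCA) and 5 a GC box (GGGCGG, the site of SP factors). Over all 32851 windows, which are longer at 300 bases, the shares were 7.81% and 35.7%. The 16 are too few to set a share against these. The first 3 sequences below are the AP-1 windows, with the motif in capitals. They lie at chr11:49051243-49051492 (minus strand) before 9930111J21Rik2, at chr2:24336610-24336859 (plus strand) before Il1rn, which encodes the interleukin 1 receptor antagonist, and at chr3:92485882-92486131 (minus strand) before Sprr1a, which encodes a small proline-rich protein of the cornified envelope.
9930111J21Rik2: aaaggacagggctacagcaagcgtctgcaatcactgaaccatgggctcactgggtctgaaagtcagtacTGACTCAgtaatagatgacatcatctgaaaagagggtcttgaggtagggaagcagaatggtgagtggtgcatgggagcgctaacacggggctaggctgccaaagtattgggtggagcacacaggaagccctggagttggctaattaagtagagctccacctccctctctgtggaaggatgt
Il1rn: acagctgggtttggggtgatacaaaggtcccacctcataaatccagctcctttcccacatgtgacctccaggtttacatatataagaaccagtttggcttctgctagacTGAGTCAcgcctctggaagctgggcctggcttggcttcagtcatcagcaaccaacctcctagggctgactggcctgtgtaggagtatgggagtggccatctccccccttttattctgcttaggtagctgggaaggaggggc
Sprr1a: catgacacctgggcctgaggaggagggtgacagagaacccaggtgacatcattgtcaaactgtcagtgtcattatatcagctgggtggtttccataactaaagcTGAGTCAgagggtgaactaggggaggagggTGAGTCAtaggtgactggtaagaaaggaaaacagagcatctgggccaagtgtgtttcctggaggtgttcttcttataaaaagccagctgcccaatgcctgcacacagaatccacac

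The KO-only peaks over these windows were 820, 547 and 536 bp long, and the nearest WT peaks were 4.16, 19.1 and 204.1 kb away. Sprr1a held 2 AP-1 matches and the others 1 each. None of these windows is rich in CG dinucleotides: the 250 bases held 3, 1 and 0. Among the 5 GC box windows, the 3 printed below differ from them in this. Of those 5, the 3 under the longest peaks are at chr8:123332463-123332712 (plus strand) before Spire2, an actin nucleator, at chr5:92278182-92278431 (minus strand) before Naaa, a lysosomal amidase, and at chr15:103366792-103367041 (minus strand) before Itga5, the alpha subunit of a fibronectin receptor. GC box matches on either strand are in capitals.
Spire2: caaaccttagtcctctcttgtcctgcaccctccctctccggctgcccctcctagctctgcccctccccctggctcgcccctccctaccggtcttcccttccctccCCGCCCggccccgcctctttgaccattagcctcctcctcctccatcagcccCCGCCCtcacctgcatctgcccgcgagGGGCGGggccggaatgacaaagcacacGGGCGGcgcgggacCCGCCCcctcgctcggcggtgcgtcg
Naaa: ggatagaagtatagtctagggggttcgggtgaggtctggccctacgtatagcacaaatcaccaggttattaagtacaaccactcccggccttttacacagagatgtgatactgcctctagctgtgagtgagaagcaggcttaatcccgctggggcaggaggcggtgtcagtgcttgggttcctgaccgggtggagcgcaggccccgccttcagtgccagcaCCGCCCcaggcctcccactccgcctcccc
Itga5: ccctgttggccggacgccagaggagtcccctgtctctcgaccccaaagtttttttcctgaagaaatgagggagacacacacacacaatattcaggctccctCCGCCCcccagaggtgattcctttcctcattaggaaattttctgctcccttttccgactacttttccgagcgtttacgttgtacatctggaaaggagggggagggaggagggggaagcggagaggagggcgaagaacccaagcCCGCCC

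These windows held 21, 10 and 11 CG dinucleotides and 5, 1 and 2 GC box matches. Their peaks were 687, 568 and 428 bp long and lay 315.6, 211.0 and 284.7 kb from the nearest WT peak. The printed AP-1 windows thus held fewer CG dinucleotides than the printed GC box windows. A GC box itself holds a CG and the AP-1 motif none, so part of this follows from choosing windows by motif.

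Over all 556 windows that met a KO-only peak, GC boxes, ETS motifs and AP-1 motifs were more frequent than over all promoter windows, and p53 motifs were not. An AP-1 match was in 80 of 556 (14.4%, interval 11.6 to 17.6), against 7.81% of all 32851 windows, 9.23% (6.76 to 12.2) of the 466 windows at shared KO peaks and 9.38% of the 224 at WT-only peaks. A GC box was in 56.1% (51.9 to 60.3) against 35.7% of all windows, 48.9% at shared and 54.9% at WT-only peaks. The ETS motif (CCGGAA) was in 27.7% (24.0 to 31.6), against 14.9% of all windows, 26.0% at shared and 23.7% at WT-only peaks. These 3 shares at KO-only windows lay above the share of all windows by more than the counting interval. For each of the 3, the interval of KO-only windows overlapped those of shared and of WT-only windows. Restricted to TGACTCA and its reverse complement, a choice made after seeing the data, AP-1 was in 10.4% of the KO-only windows and 5.20% of all windows.

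The p53 motif (the 10-letter element that a full site holds in a pair, with all motifs searched on both strands) was distributed otherwise. It was in 42 of 556 KO-only windows (7.55%, 5.50 to 10.1), close to the 8.36% of all windows and the 8.80% at shared peaks. At WT-only peaks it was in 41 of 224 windows (18.3%, 13.5 to 24.0), and this interval did not overlap that of the KO-only windows. The E-box (CACGTG) was likewise highest at WT-only peaks, with 7.73% at KO-only peaks, 7.15% of all windows and 15.6% at WT-only peaks. The TEAD motif (GGAATG), at 14.7%, and the CCAAT box, at 37.1%, were near the shares of all windows, 14.7% and 37.4%. The cyclic AMP response element (TGACGTCA) was in 3.78% against 1.79%, the NRF1 motif in 2.88% against 0.971%, and the TATA box (TATAAA) in 9.53% against 13.6%. The first 2 thus also lay above all windows by more than the counting interval (2.35 to 5.72 and 1.65 to 4.63). At shared KO windows they were in 5.58% and 3.65%. Base composition moves with several of the motif shares. The median GC content was 58.7% at KO-only windows and 52.7% over all. Windows with a GC of at least 55% and an observed to expected CpG ratio of at least 0.65 are called CpG-rich. They made up 51.8% (47.6 to 56.0) of KO-only windows and 28.1% of all windows. Shared windows were alike in this, with a median GC of 58.3% and 48.3% CpG-rich, and so were WT-only windows at 59.7% and 52.7%. The part of base composition in the motif shares was not tested. A match is a description and not a bound site.

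**Figure D1:**
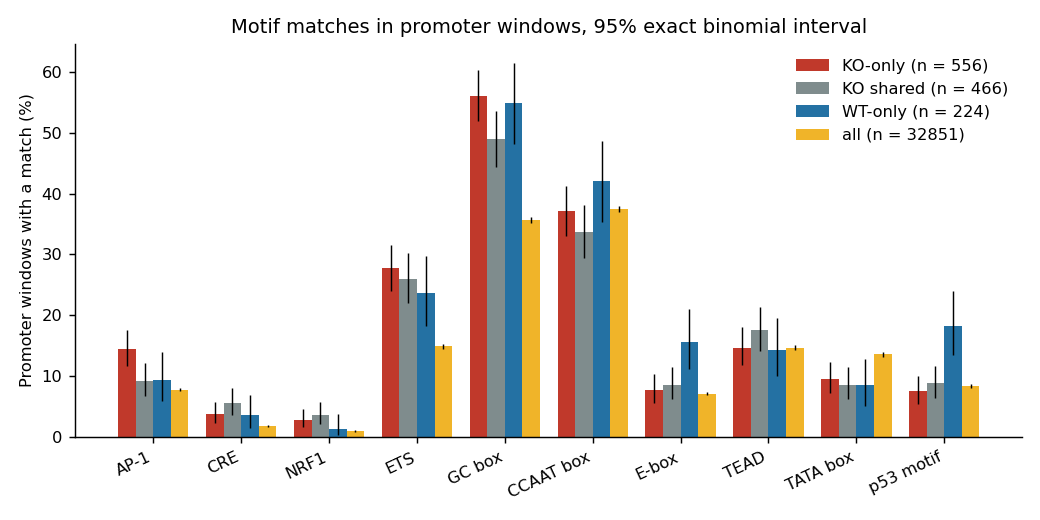
Share of RefSeq promoter windows with a motif match on either strand (y axis, percent), for windows that met a KO-only, a shared KO or a WT-only peak and for all windows, with 95% exact binomial intervals. AP-1 is highest at KO-only peaks (14.4%), with an interval that overlaps those of shared and WT-only peaks. The p53 motif is at 18.3% at WT-only peaks against 7.55% at KO-only peaks.

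KO-only peaks were short. Their median length was 299.5 bp (quartiles 219.0 and 436.0, range 182 to 2351), against 459.0 bp for shared KO peaks and 398.0 bp for WT-only peaks. Peaks under 250 bp made up 37.0% of the KO-only peaks (2135 of 5770) and 21.4% of the shared ones, and only 67 KO-only peaks (1.16%) reached 1000 bp, against 282 shared ones (7.03%). Length is not independent of the rule, since a longer interval has more chance to meet a WT peak, so these values are a description. Read the other way, the share of KO peaks without a WT peak was 71.3% under 250 bp, 65.6% from 250 to below 500 bp, 37.9% from 500 to below 1000 bp and 19.2% from 1000 bp. The KO-only peaks covered 2.04 Mb in all, close to the 2.06 Mb of the less numerous shared peaks.

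**Figure D2:**
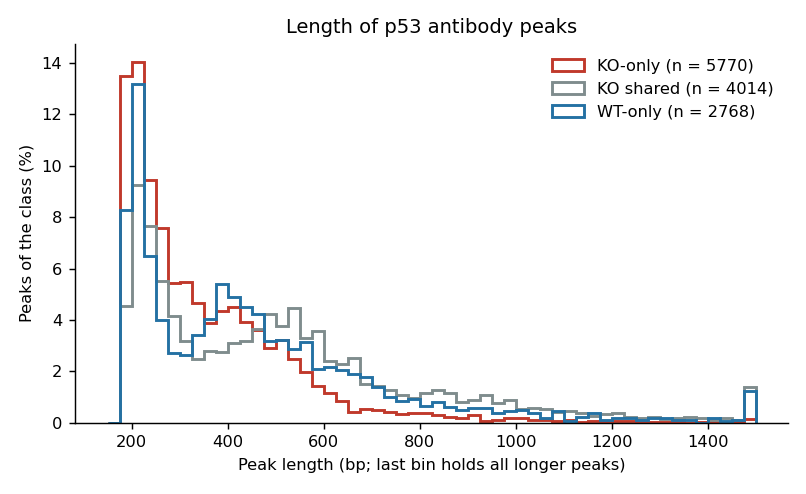
Length of peaks in bp (x axis, the last bin holding all longer peaks) as a percent of each class (y axis), for 5770 KO-only, 4014 shared KO and 2768 WT-only peaks. The KO-only peaks pile up at the short end (37.0% under 250 bp).

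The edge of the rule was sparsely filled. The 5 KO-only peaks nearest to a WT peak, on chromosomes 4, 1, 5, 14 and 8, lay 79, 118, 129, 146 and 165 bp from it, and the 5 KO peaks with the smallest overlap shared 3, 28, 30, 49 and 56 bp with a WT peak. Only 285 KO-only peaks (4.94%) had a WT peak within 1 kb. The median distance to the nearest WT peak was 47.4 kb (quartiles 11.2 and 165.3 kb). KO-only peaks lay nearer to shared KO peaks than to WT-only peaks: the medians were 68.7 kb to the nearest of the 4014 shared peaks and 244.0 kb to the nearest of the 2768 WT-only peaks, and 20.6% against 4.25% had one within 10 kb. The 2 sets differ in number, which moves such distances too. A gap of at most 10 kb joined 1319 KO-only peaks (22.9%) to a shared KO peak, while 3209 (55.6%) had no other KO peak of either kind so near.

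With respect to genes, KO-only peaks were placed much like the shared ones. They overlapped a RefSeq gene span in 3383 cases (58.6%, 57.3 to 59.9), against 58.4% (56.9 to 60.0) of shared KO peaks and 53.7% (51.8 to 55.6) of WT-only peaks. The gene table gives spans and not exons, so exon, intron and untranslated parts were not told apart. On the chromosomes with promoter windows (all but 18 and M), 442 of 5548 KO-only peaks (7.97%, 7.27 to 8.71) met a window, against 9.34% (8.44 to 10.3) of shared and 6.50% (5.60 to 7.49) of WT-only peaks. Measured from the peak midpoint, 11.1% lay within 1 kb of an annotated start, 22.0% from 1 to 10 kb, 52.1% from 10 to 100 kb and 14.8% farther away, with a median of 21.2 kb. Shared peaks had a median of 19.7 kb and WT-only peaks one of 21.8 kb. Most KO-only peaks were therefore distal, as were those of the other classes.

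Promoter peaks were found mainly among the short peaks. Under 250 bp, 12.4% (11.0 to 13.9) of KO-only peaks met a promoter window, against 5.21% (4.38 to 6.15) from 250 to below 500 bp and 5.60% (4.21 to 7.28) from 500 bp, although a longer interval meets a window more easily. The shared KO peaks had 17.1%, 8.41% and 6.23%, and were likewise highest under 250 bp. In the first 2 length classes their intervals did not overlap those of the KO-only peaks (14.6 to 19.8 and 6.99 to 10.0). In both of these length classes the KO-only share was the lower one. The longest KO-only peaks at a promoter window were 1072 bp at Wincr1, a long noncoding RNA on chromosome 4, 957 bp at Btg1c and 803 bp at Sh3kbp1 on X, 901 bp at Gm29083 inside Nrp2, 842 bp at Gm33659, 820 bp at 9930111J21Rik2, 796 bp at Prss23 (a secreted serine protease), 750 bp at Snrnp35, 736 bp at Gm46252 inside Vps53 and 689 bp at 9930111J21Rik1. Noncoding or predicted genes thus held several of these starts.

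The longest KO-only peak, 2351 bp (chr16:37788289-37790639), lay in Fstl1, a secreted glycoprotein, 12.4 kb from the nearest start. The next, 2339 bp (chr8:92834322-92836660), lay in Mmp2, a matrix metalloproteinase. A peak of 1465 bp lay in Loxl1, which cross-links elastin, on chromosome 9. A peak of 2315 bp on chromosome 12, between genes and 57.5 kb from Rad51b, had a WT peak only 0.385 kb away, while the peak of 1589 bp on chromosome 13 was 138.7 kb from one and the peak of 1511 bp on chromosome 18 was 607.8 kb from one. The other 4 were 1871 bp in Ddo on chromosome 10, 1702 bp beside Rai14 on chromosome 15, 1584 bp at 8.44 kb from Slc18a1 and 1536 bp at 13.4 kb from Lactb.

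Counted per gene, with 5 kb added on each side of the span, 3861 of 49976 RefSeq genes (7.73%) and 2402 of 21896 protein-coding genes (11.0%) had a KO-only peak. A shared KO peak was found at 8.14% of coding genes and a WT-only peak at 6.33%. Long genes offer more room: the share with a KO-only peak was 5.04% of coding genes below 10 kb, 9.42% from 10 to below 50 kb, 17.2% from 50 to below 100 kb and 29.7% from 100 kb. These shares are the background for the gene lists below, whose members were picked from general knowledge with earlier results of these data known. No list was tested, and nothing is called particular to a list.

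Of 56 p53 target genes on 4 lists, 4 (7.14%) had a KO-only peak, near the background of 11.0% of coding genes and of 5.04% and 9.42% in the 2 shortest span classes. In the same lists 7 had a shared KO peak and 33 a WT-only peak. The 4 genes with a KO-only peak included Sesn2, a stress-induced inhibitor of mTORC1 signalling, with a peak of 197 bp at 3.45 kb before its start, and Abhd4, with a peak of 327 bp at its promoter. Trp53i11, with a promoter peak of 225 bp, and Sco2, a cytochrome c oxidase assembly factor with a peak of 196 bp inside the gene, were the other two. Sesn2 and Abhd4 also had a WT-only peak, 1 each, and the KO-only peaks lay 3.75 and 5.38 kb from the nearest WT peak. Trp53 itself (chr11:69580348-69591873) had no KO-only peak within 5 kb, its nearest KO peak of any kind lay 40.6 kb away, and 1 WT-only peak was found there, which is no measure of the knockout.

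Genes of the actin cytoskeleton and cell adhesion had the highest share of all 19 lists, beside 11.0% of coding genes. Of 22 listed genes, 13 had one (59.1%, 36.4 to 79.3), with 26 peaks in all. Vcl (vinculin, which ties integrins to actin) had 3, one of them 230 bp long at the promoter, and Tpm1 (tropomyosin) and Actn4 (an alpha-actinin) had 3 each. The same list had a shared KO peak at 12 of 22 genes and a WT-only peak at 6. The median span of these genes was 33.7 kb, a length class in which 9.42% of coding genes had a KO-only peak.

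Targets of YAP and TEAD, which answer to cell tension and adhesion, had a KO-only peak at 10 of 20 genes (interval 27.2% to 72.8%), 4 of them at a promoter window. Amotl2, an angiomotin that restrains YAP, had peaks of 223 bp at its promoter and 432 bp inside the gene and no shared or WT-only peak. Axl, a receptor tyrosine kinase, had a peak of 408 bp at its promoter and one of 190 bp behind the gene, and also 2 shared KO peaks. Ajuba, a LIM-domain adaptor, had a promoter peak of 573 bp. Wwc1 (Kibra) had 2 KO-only peaks, of 353 and 189 bp, and also 2 WT-only peaks. Shared KO peaks were at 6 of the 20 and WT-only peaks at 8. The median span of the 20 genes was 50.5 kb, and 17.2% of coding genes from 50 to below 100 kb had a KO-only peak.

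Extracellular matrix genes had one at 10 of 21 (47.6%, 25.7 to 70.2), none at a promoter window. Loxl2, a lysyl oxidase, had 4 peaks of 272 to 457 bp, all 78.7 kb or more from a WT peak, and Lamb1, a laminin chain, had 4 of 222 to 479 bp, all 80.3 kb or more from one. Col4a1 and Col4a2, neighbouring genes for basement membrane collagen, had 2 each, the longest being 576 bp in Col4a1. Loxl2, Lamb1 and Col4a1 had no shared KO or WT-only peak, while Col4a2 had 4 shared ones. The list had a shared KO peak at 7 genes and a WT-only peak at 3. Its median span was 54.4 kb, a length class in which 17.2% of coding genes had a KO-only peak.

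Markers of ovarian surface epithelium and mesothelium had a KO-only peak at 9 of 22 genes (40.9%, 20.7 to 63.6). A shared KO peak was at 7 of the 22 and a WT-only peak at 3. The median span of the list was 27.2 kb, a length class in which 9.42% of coding genes had a KO-only peak. Gata4, a transcription factor of the gonads and coelomic lining, had 5 peaks of 277 to 871 bp within 5 kb of its span, 1.21 to 13.6 kb from a WT peak. Cdh1 (E-cadherin) had 3 peaks of 383 to 486 bp, Lrrn4, a mesothelial marker, had 2 of 278 and 595 bp, and Dab2 had 2 of 214 and 297 bp. For markers of other cell types the counts were 3 of 18 neuronal and glial (16.7%, 3.58 to 41.4), 1 of 14 leukocyte (7.14%, 0.181 to 33.9) and 2 of 11 fibroblast and endothelial (18.2%, 2.28 to 51.8), and these intervals overlap that of the ovarian list. In the order named they were Syn1, Mbp and Syt1, then Cd68, then Pecam1 and Tek. Peaks do not measure expression, so the identity of the cells was not checked by this.

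AP-1 and immediate early genes, which are short (median span 5.34 kb), had a KO-only peak at 8 of 21 (38.1%, 18.1 to 61.6). Of coding genes below 10 kb, 5.04% had one. Nearly all of the peaks at the listed genes lay outside the genes. Within the gene span alone 1 of 21 had one, beside 8.05% of coding genes of any length. The count by span alone was computed for this list after seeing the data. Fosl2 had a peak of 773 bp at 0.865 kb before its start and Fosb one of 595 bp behind the gene, 9.18 kb from its start. Junb had 2, of 273 bp at 2.62 kb before and 244 bp at 2.26 kb after its start, and Jund had one of 428 bp inside the gene. Shared KO peaks were near 6 of the 21 and WT-only peaks near 2.

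Ribosomal protein genes had 4 of 22 (18.2%) and housekeeping genes 5 of 20, in genes with median spans of 3.74 and 6.88 kb. Shared KO peaks were at 1 and 0 of these genes and WT-only peaks at 1 and 2. Of coding genes below 10 kb, 5.04% had a KO-only peak. Rpl4 had one of 606 bp over its promoter and Ppia, cyclophilin A, one of 207 bp at its promoter. Cancer genes had 5 of 24 (20.8%), led by the noncoding RNA gene Pvt1 with 5 peaks and Egfr with 2, both of which also had shared and WT-only peaks. On the cancer list 6 genes had a shared KO peak and 5 a WT-only peak. Repeat silencing genes had 3 of 24 (12.5%): Cbx5 (heterochromatin protein 1 alpha) with 3 peaks of 201 to 234 bp, Dnmt1, the maintenance DNA methyltransferase, with a promoter peak of 196 bp, and Atf7ip with a promoter peak of 184 bp. Of RNA and DNA sensing genes 2 of 17 (11.8%) had a KO-only peak, Tlr7 with 2 peaks and Sting1 with one of 250 bp. Shared KO peaks were at 2 repeat silencing and 1 sensing genes, and WT-only peaks at 0 and 1. The median spans of the cancer, repeat silencing and sensing lists were 26.1, 36.0 and 15.4 kb. In that length class 9.42% of coding genes had a KO-only peak. No interferon response gene (0 of 20, interval up to 16.8%) and no antigen presentation gene (0 of 13, up to 24.7%) had a KO-only peak. Both intervals take in the 11.0% of coding genes with such a peak. Shared KO peaks were at 1 and 0 of these genes and WT-only peaks at 2 and 2.

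**Figure D3:**
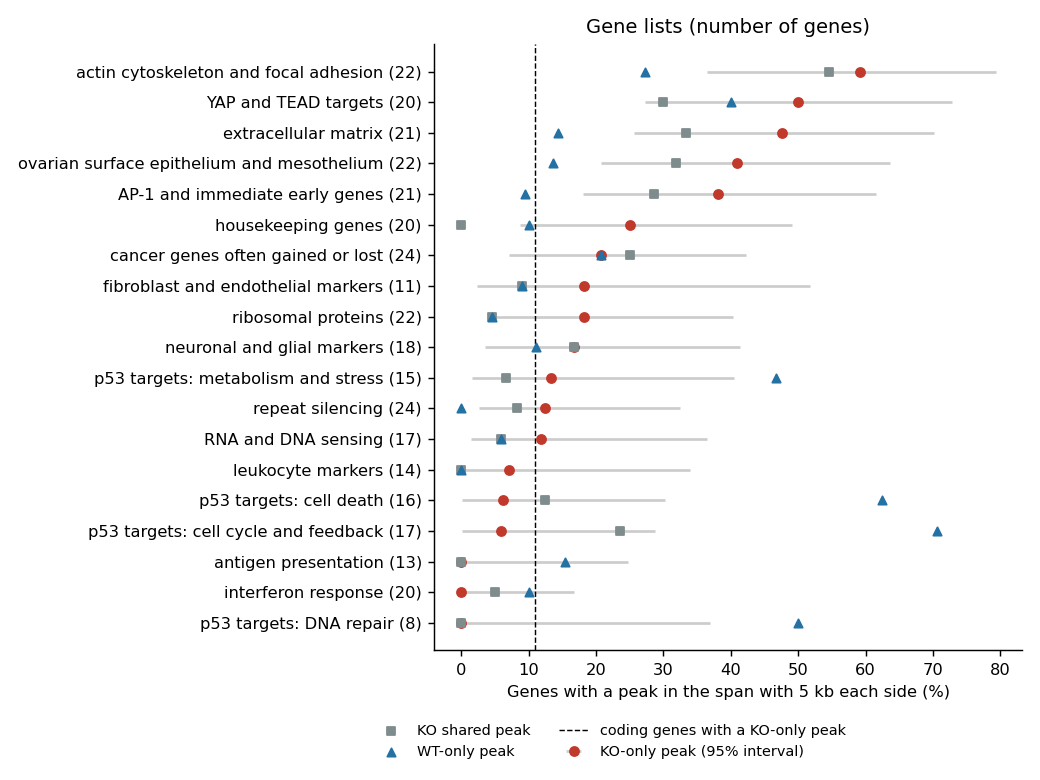
Percent of the genes of each list (x axis) with a KO-only peak (circles, 95% exact binomial interval), a shared KO peak (squares) or a WT-only peak (triangles) in the span with 5 kb each side. The dashed line is the 11.0% of protein-coding genes with a KO-only peak. The actin and adhesion list stands at 59.1%, and the p53 target lists are higher for WT-only peaks than for KO peaks of either kind.

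Most KO-only peaks, 3841 (66.6%), had no other KO-only peak within 10 kb, and a minority came in local groups. Chained at gaps of at most 10 kb, 699 of 5770 (12.1%, 11.3 to 13.0) fell in 199 chains of 3 or more, against 10.2% (9.29 to 11.2) of shared KO peaks and 3.47% (2.82 to 4.22) of WT-only peaks. Chaining rises with the number of peaks. The longer 50% of the KO-only peaks, 2885 and so close in number to the 2768 WT-only peaks, had 7.38% (6.46 to 8.40) in chains. That subset was chosen by length and not at random, so the part of peak number was not tested. The largest chains held 8 peaks each. One spanned 32.2 kb over Tpt1, which encodes the translationally controlled tumour protein (chr14:75818435-75850590). Another covered 22.3 kb at Gm11958, 25.3 kb from Lif, an interleukin 6 family cytokine (chr11:4297802-4320062). The next covered 30.8 kb at Me1, the cytosolic malic enzyme (chr9:86694677-86725442), with no shared or WT-only peak inside it. A chain of 7 on chromosome 7 began before the start of Abhd2 and ran into the gene, with 5 of its peaks in the gene span. Among the 10 chains named here, 6 held 6 peaks each. One of these, in Adamts16, a secreted metalloprotease, was packed in 8.65 kb, and 2 overlapped the long noncoding RNA gene Gm12610, one of them running past its end. The others were at Aopep, at Gm46879 and at Gm20139, the last 101.8 kb from Tnfaip3, an inhibitor of NF-kappa B signalling.

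**Figure D4:**
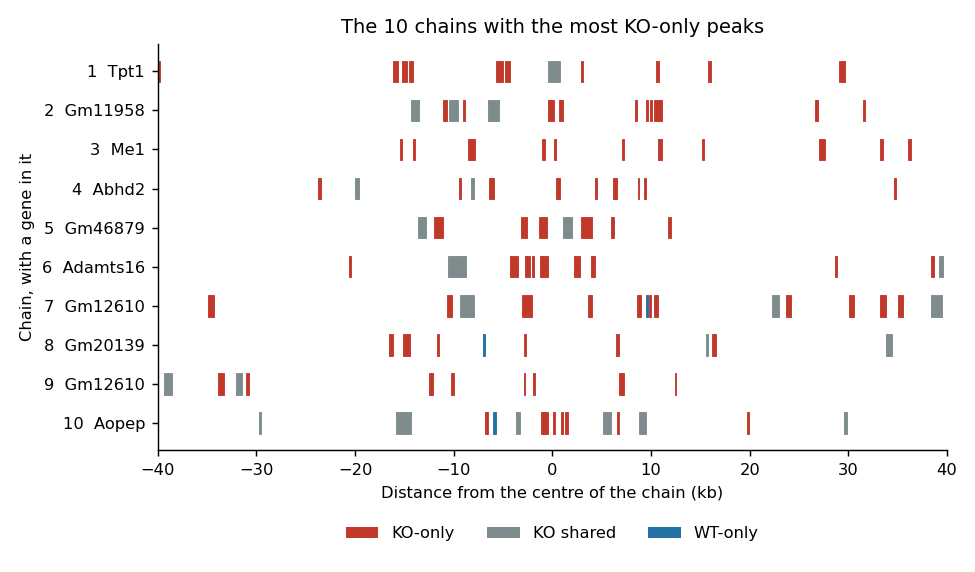
The 10 chains with the most KO-only peaks (1 line each), labelled with a gene inside them and drawn by distance from the centre in kb (x axis). KO-only, shared KO and WT-only peaks are drawn by their length, including neighbouring peaks in view beyond a gap of 10 kb that are not counted in the chain. The chain at Me1 holds 8 KO-only peaks and no other, and 3 of the 10 chains hold a WT-only peak.

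At the scale of 1 Mb, KO-only peaks were in 1598 of 2732 windows, with a median of 3 in those that had any, and 336 windows (12.3%) held 50% of them. The richest window (chr4:89000001-90000000) held 31 KO-only, 9 shared KO and 3 WT-only peaks. It takes in Mtap, Dmrta1 and the whole of Gm12610, which with 17 KO-only peaks had more than any other gene. The next were on chromosome 14, with 28 at Zmiz1 and Anxa11 and 25 at Tsc22d1 and Serp2, and on chromosome 8 with 24 at Dusp4, Tnks, Dctn6 and Mboat4. Windows at Bmper (21, chromosome 9), Adamts16 and Ice1 (20, chromosome 13), and Me3 and Prss23 (19, chromosome 7) followed. Each of these 7 windows held 1 to 3 WT-only peaks. Their chromosomes had 0.826 to 1.22 WT-only peaks per Mb, so this is no lack of them. Across the 2732 windows the number of KO-only peaks went with that of shared KO peaks (Spearman's rho 0.634) more than with that of WT-only peaks (0.328), as a description of windows that share libraries, gene content and mappability.

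Single genes with many KO-only peaks were mostly long. Behind Gm12610 came Adamts16 with 13 peaks in 114.0 kb, Zmiz1, a transcriptional coactivator, with 11, Me3, the mitochondrial NADP malic enzyme, with 11 and Aopep with 11. Fmn1, a formin that assembles actin filaments, and Pde4d, a cyclic AMP phosphodiesterase spanning 1301.8 kb, had 10 each, and Ctif, Cmss1 and Abhd2 had 9 each. Me3 had no shared KO or WT-only peak at all, whereas Aopep had 12 shared ones. Of these 10 genes, 7 had no WT-only peak, and Gm12610, Zmiz1 and Aopep had 1 each. Among coding genes of 100 kb or more, 19.1% had a WT-only peak, so most genes of such length have none.

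Chromosomes differed in how much of the KO list was KO-only. Y and M, with 7 and 5 KO peaks, are left out of the orders that follow. The share was lowest on chromosome 19, 80 of 196 peaks (40.8%, 33.9 to 48.0), then on 6 (45.6%, 40.9 to 50.2) and 16 (49.1%, 42.9 to 55.2). It was highest on X, 154 of 211 (73.0%, 66.5 to 78.9), then on 14 (69.1%, 65.2 to 72.9), 12 (66.8%, 61.6 to 71.7) and 8 (66.5%, 62.4 to 70.4). The intervals of the 3 lowest did not reach those of the 4 highest. Since these shares come from the rule, they are a description. Per Mb up to the last annotated gene, KO-only peaks were densest on chromosome 11 (3.26) and 14 (3.13) and sparsest on X (0.902), 19 (1.30) and 16 (1.33). Neighbours in this order, such as 11 and 14, are not separated. On chromosome 19 the WT list was the longer one, with 261 peaks against 196 in the KO list, and it had 2.35 WT-only peaks per Mb, against 1.30 KO-only.

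The lengths of shared peaks varied by chromosome in a related but not identical order. The same overlap rule that chose KO-only peaks also chose the shared ones, from the same lists. A longer interval has more chance to meet a WT peak, so these lengths are not independent of the KO-only share. In 3916 pairs of a KO and a WT peak that overlapped each other and no other, the KO peak was the longer in 72.8%, with a median KO to WT length ratio of 1.15. The ratio was 1.01 on chromosome 19, where the KO peak was longer in 61 of 115 pairs, 1.06 on 16 and 1.09 on 6, but also 1.07 on 10, where 60.7% of KO peaks were KO-only. It was 1.36 on 14 and on 12, 1.33 on 18, 1.25 on X and 1.21 on 8. Across the 20 chromosomes other than Y and M, the share of KO-only peaks was set against this ratio. Pearson's r was 0.783 and Spearman's rho was 0.849. The same lists and overlap rule enter both measures, so these values are a description and no separate evidence. Copy number and read depth per chromosome are not in the lists, and their part was not tested.

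**Figure D5:**
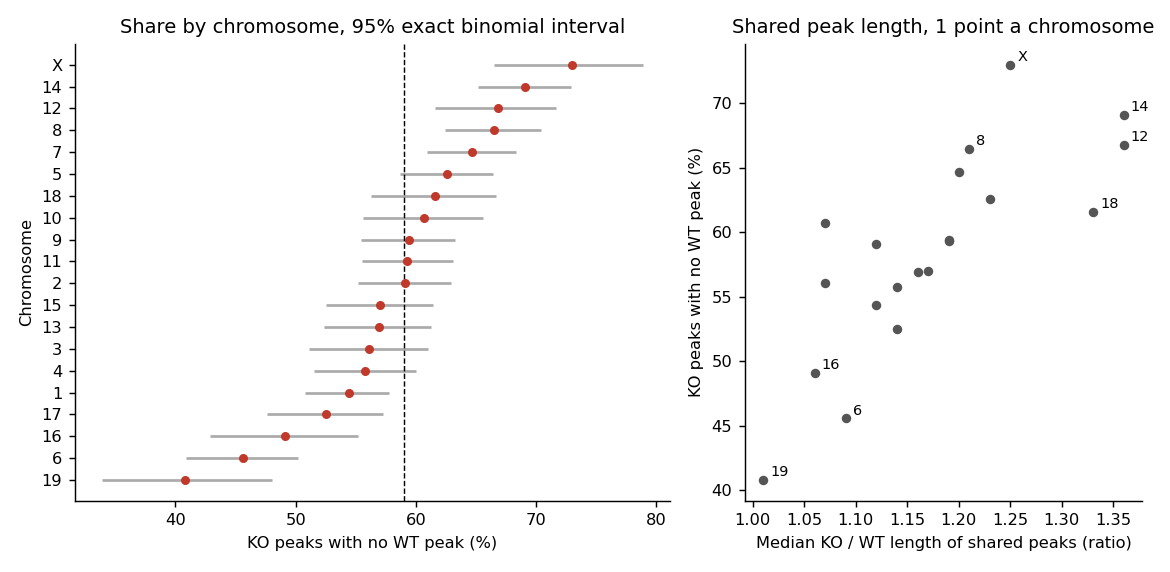
Left, the share of KO peaks with no WT peak by chromosome (x axis, percent; bars are 95% exact binomial intervals; the dashed line is the 59.0% of all KO peaks), leaving out Y and M. Right, the same share (y axis) against the median ratio of KO to WT length in shared peak pairs (x axis), 1 point per chromosome. The same overlap rule enters both measures. Chromosome 19 is lowest on both measures (40.8% and a ratio of 1.01).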

How the data were processed

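The p53 antibody peak lists on mm10, 1 each for WT and KO cells and 1 labelled WT-specific, were deposited by the authors as positions only (chromosome, start, end), per the file headers. Tools listed in the submitters' processing notes are Bowtie2, deepTools, fastp and MACS2. Neither labels nor headers state their versions, the calling threshold, or whether the 2 samples per genotype were pooled, and the depth behind the peaks is unknown. The labels' samples fall into p53 KO, p53 WT, 16 samples of 4 histone H3 modifications and 1 IgG sample, and the last 2 kinds were not analysed here. Nothing says that the samples of a genotype came from separate cultures.

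Starts were read as 0-based and are printed 1-based. Intervals were compared at a minimum overlap of 1 bp, with functions tested against bedtools 2.31.1 on simulated intervals. Gene spans (49976 placed genes) and promoter windows (32851 of 27025 genes, none on chromosome 18) came from RefSeq GRCm38.p6. All listed genes matched a symbol or synonym. Chains join KO-only peaks at gaps of at most 10 kb. Those with equal numbers of peaks were ordered by bases of KO-only peak. The members, the 19 gene lists and the rules were chosen with earlier results of these data known. Named were Trp53, the 10 longest peaks, the 10 longest at promoters, the 10 largest chains, the 10 genes with most peaks, up to 4 genes per list by bases of KO-only peak, and the 5 peaks on each side of the rule. Some genes that this rule names are not reported here. Printed sequences, named windows and other genes were chosen after their values were seen. Computations used Python 3.11.15, numpy 2.4.6, pandas 2.3.3 and scipy 1.17.1. Alternatives covered the overlap rule, peak length, gene reach, promoter window, chain gap and motif letters.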

Additional observations from a re-analysis of the deposited data

How the results depend on the processing

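Of 43 alternatives run, 24 left the value within its counting interval, or a count within 1.5 times, and 19 moved it. KO-only peaks numbered 5770 as reported, 6520 where 50% of the KO peak had to be covered (median length 330.0 bp), 5664 where WT peaks within 500 bp also counted, and 3378 with the longer 50% of each list. The share in genes, 58.6%, was 57.3% by midpoint and 46.3% with protein-coding genes only. The promoter share, 7.97%, was 11.7% within 1 kb of a start and 5.33% in the longer 50% of KO-only peaks. The share in chains was 5.68% at 5 kb, 37.0% at 50 kb and 7.38% in the longer 50%. By bases in place of peaks, the KO-only share was 37.1% on chromosome 6, 33.7% on 19, 57.3% on 14 and 65.7% on X. Genes with a KO-only peak numbered 3861, 2473 by span alone and 1982 with the longer 50%. Where 50% of the promoter window had to be covered, AP-1 was in 17.8% and the GC box in 50.6%; AP-1 with stricter letters was in 10.4%. Immediate early genes with a KO-only peak fell from 8 to 1 of 21 by span alone, while the other 4 lists named with high shares stayed within 1.5 times. No paired analysis was possible because each genotype has a single list, so no replicate could be left out either.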

Other observations

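Few sensory receptor genes lay near a peak of any class. Of 1428 olfactory receptor genes, which are silent in most tissues, 7 (0.490%) had a KO-only peak within 5 kb, and of 359 vomeronasal receptor genes 4 (1.11%) did, against 7.73% of all RefSeq genes. Shared KO peaks were near 4 and 2 of these genes and WT-only peaks near 6 and 2. Zinc finger genes named Zfp had one at 49 of 416 (11.8%), near the 11.0% of coding genes, and keratin genes at 4 of 55 (7.27%). By kind of gene, long noncoding RNAs had one at 8.07%, and pseudogenes at 1.92%. Genes of transfer RNA had one at 45 of 430 (10.5%): all 22 on the mitochondrial genome and 23 of 408 nuclear ones (5.64%). The mitochondrial genome is short, 0.0154 Mb up to its last annotated gene, and holds 4 KO-only peaks. With 5 kb added on each side, the 22 follow from the reach and are no result about these genes. The pooled 10.5% includes them and is not one either. Of 1182 microRNA genes, 54 (4.57%) had a KO-only peak within 5 kb, beside the 7.73% of all RefSeq genes. A shared KO peak was near 33 of them and a WT-only peak near 24. By direct overlap, 5 of 1005 microRNA hairpins met a KO-only peak: Mir3092, Mir574, Mir6240, Mir344 and Mir7688. By span alone 2473 of 49976 RefSeq genes did, which are mostly longer than a hairpin.

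The mitochondrial genome held 4 of the KO-only peaks, of 318 to 1166 bp, of 5 KO peaks there, against 1 WT peak. Chromosome Y held 2 KO-only peaks, of 285 and 565 bp, of 7 KO peaks, while 20 of its 25 WT peaks had no KO peak. Both chromosomes hold too few peaks for a share to be read.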
